A study of Mus musculus with 9 samples.

Results

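The Hox genes of the A, B, C and D clusters were followed in RNA sequenced from whole dorsal root ganglia (DRGs). Members were all rows of the count table named Hoxa, Hoxb, Hoxc or Hoxd followed by a number, which gave 39 genes of 55247 rows. The DRGs came from mouse embryos at E18.5, in 9 libraries of 3 genotypes with 3 libraries each. The genotypes were WT, Isl1Cre/+, in which 1 copy of Isl1 carries a Cre recombinase, and Isl1Cre/+::Meis2LoxP/LoxP (hereafter mutant), in which the same Cre removes exon 8 of both copies of Meis2, where the coding part of its homeodomain begins. Both Cre genotypes thus have the knock-in at Isl1 in common, and recombination is limited to cells that have expressed Isl1, which in DRGs are the sensory neurons. The axial levels of the pooled ganglia, the number of embryos behind a library and their litters are not given in the sources used here, and the p-values below therefore measure only the spread between these libraries.

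Hox proteins are homeodomain transcription factors that give cells along the body axis their positional identity. Within a cluster the genes lie in the order of their action: low paralog groups are switched on early and far rostrally, high groups late and caudally, so that the combination present in a ganglion tells its level. DRG neurons and glia derive from neural crest and keep such a code, in which groups 4 to 8 are typical of cervical to thoracic ganglia and groups 10 and 11 of lumbar and sacral ones. Meis and Pbx proteins, of the TALE class of homeodomain factors, bind DNA together with Hox proteins as cofactors. The questions addressed here were which Hox genes these ganglia contained, whether deletion of Meis2 changed them, and whether the libraries differed in axial composition.

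The homeobox, the stretch of coding DNA for the DNA-binding homeodomain, was located in all 39 genes in the GENCODE M21 transcripts (GRCm38, also called mm10), where it covers 180 bases of a single exon. Those shown here are of the genes with the highest level in the B and C clusters (Hoxb7, Hoxc10), of the genes that met the study's criterion in any pairwise comparison (Hoxb7, Hoxc8) and of the genes on which the difference between libraries turned (Hoxc10, Hoxd10, Hoxc11, Hoxd11). Capitals mark 18 bases that encode the core of the third helix, which contacts the major groove of DNA.
Hoxb7, chr11:96289385-96289564, plus strand: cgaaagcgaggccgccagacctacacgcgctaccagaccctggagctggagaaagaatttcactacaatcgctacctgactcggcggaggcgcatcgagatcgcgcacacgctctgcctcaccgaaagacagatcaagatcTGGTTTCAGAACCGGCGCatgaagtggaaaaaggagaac
Hoxc8, chr15:102992571-102992750, plus strand: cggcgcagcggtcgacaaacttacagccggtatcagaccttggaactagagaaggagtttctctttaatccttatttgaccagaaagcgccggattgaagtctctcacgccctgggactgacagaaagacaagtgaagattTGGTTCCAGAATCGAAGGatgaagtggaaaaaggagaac
Hoxc10, chr15:102970848-102971027, plus strand: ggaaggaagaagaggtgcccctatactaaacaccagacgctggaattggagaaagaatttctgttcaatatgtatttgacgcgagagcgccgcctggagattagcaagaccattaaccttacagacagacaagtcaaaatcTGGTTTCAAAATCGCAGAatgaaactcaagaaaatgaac
Hoxd10, chr2:74694141-74694320, plus strand: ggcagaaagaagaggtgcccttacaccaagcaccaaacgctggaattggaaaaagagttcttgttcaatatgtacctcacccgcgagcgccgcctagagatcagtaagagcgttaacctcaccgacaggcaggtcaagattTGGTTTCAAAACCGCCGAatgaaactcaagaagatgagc
Hoxc11, chr15:102956480-102956659, plus strand: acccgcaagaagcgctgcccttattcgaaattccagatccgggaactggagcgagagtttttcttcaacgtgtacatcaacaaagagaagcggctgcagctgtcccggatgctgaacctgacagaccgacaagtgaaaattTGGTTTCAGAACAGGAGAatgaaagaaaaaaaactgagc
Hoxd11, chr2:74683917-74684096, plus strand: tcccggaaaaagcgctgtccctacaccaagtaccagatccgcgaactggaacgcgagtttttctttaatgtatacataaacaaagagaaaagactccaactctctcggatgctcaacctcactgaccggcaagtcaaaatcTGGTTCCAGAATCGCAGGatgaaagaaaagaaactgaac

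Homeoboxes of the same paralog group shared 67.2 to 93.9% of bases (median 80.6% over 42 pairs), against a median of 60.6% over the 699 other pairs. Hoxc10 and Hoxd10 were identical at 82.8% of bases and Hoxc11 and Hoxd11 at 79.4%, the neighbours Hoxd10 and Hoxd11 at 65.0%, and the neighbours Hoxa6 and Hoxa7, like Hoxb6 and Hoxb7, at 88.9%. The core in capitals took 30 different forms among the 39 genes. This bears on counting, since near-identical copies can trade reads. Leaving out pairs whose exons overlap in the genome, the longest run of bases that transcripts of any pair of Hox genes had in common was 52 (Hoxa6 and Hoxb4), shorter than the 84-base reads, and no pair had a run of the length of a read in common.

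Hox transcripts were a small part of the RNA. Per library they took 7940 to 10674 of 23854607 to 29103444 counts, or 0.0309 to 0.0397%, and 33 to 38 of the 39 genes were detected. The minimum for testing, 100 counts in any 1 library, was reached by 24 Hox genes and missed by 15. The libraries WT 1 and mutant 2 stood somewhat apart over all tested genes, with median rank correlations to the other libraries of 0.981 and 0.979 against 0.991 to 0.995. Meis2 itself had 2919, 2902 and 2746 counts in WT DRGs, 2806, 2857 and 2537 in Isl1Cre/+ and 1084, 1073 and 1004 in mutant DRGs, so each mutant library lay below all 6 controls. It fell by 1.33 on the log2 scale in mutant against WT (SE 0.0844, edgeR quasi-likelihood test, adjusted p = 0.00779). Isl1, which carries the Cre, had 6030 to 8182 counts in WT, 4840 to 5719 in Isl1Cre/+ and 4327 to 5738 in mutant DRGs. Markers of sensory neurons were abundant in every library, with 12 genes summing to 4877 to 6783 counts scaled to library size (cpm), whereas 8 markers of spinal interneurons summed to at most 3.43 cpm. Motor neuron markers (5 genes) summed to 11.9 to 18.8 cpm, most of it from the choline transporter gene Slc5a7 (298 to 512 counts), and Mnx1 had 0 or 1 count.

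The ganglia contained a Hox code centred on groups 7 to 10. To compare genes, levels were expressed as cpm per kb of exon, averaged over the 9 libraries. Group 7 was the highest with 31.5 cpm per kb, followed by group 9 with 23.2, group 10 with 20.3 and group 8 with 18.9. Group 11 dropped to 2.19, group 12 to 0.221 and group 13 to 0.106. Groups 2 and 3 were low as well, with 1.96 and 3.31. The exception at the rostral end was group 1, with 14.4 cpm per kb, nearly all of it from Hoxd1. Exons of other genes on the same strand cover 62.3% of the exonic bases of Hoxd3, 52.3% of Hoxd4 and 15% of Hoxa2. Reads there cannot be assigned to 1 gene by position alone, so these levels may be too low.

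The A cluster on chromosome 6 (52155590 to 52260880) gave 30.0% of the summed Hox level per kb, the B cluster on chromosome 11 (96194316 to 96368256) 28.5%, the D cluster on chromosome 2 (74668310 to 74765142) 23.0%, and the C cluster on chromosome 15 (102921103 to 103036852) the smallest part. The members of a paralog group were not used equally. Hoxa7 and Hoxb7 led the A and B clusters with 18.2 and 13.3 cpm per kb, and Hoxc10 led the C cluster with 8.53. Hoxd1, which in mammals is known as a regulator of pain-sensing neurons, led the D cluster with 14.2, while its paralog Hoxb1 had 0 to 2 counts per library. Among the genes that led no cluster, Hoxd8 (9.13), Hoxb9 (8.78), Hoxa10 (6.79), Hoxa9 (6.30) and Hoxb8 (6.28) were highest, with Hoxd8 and Hoxb9 above Hoxc10.

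**Figure D1:**
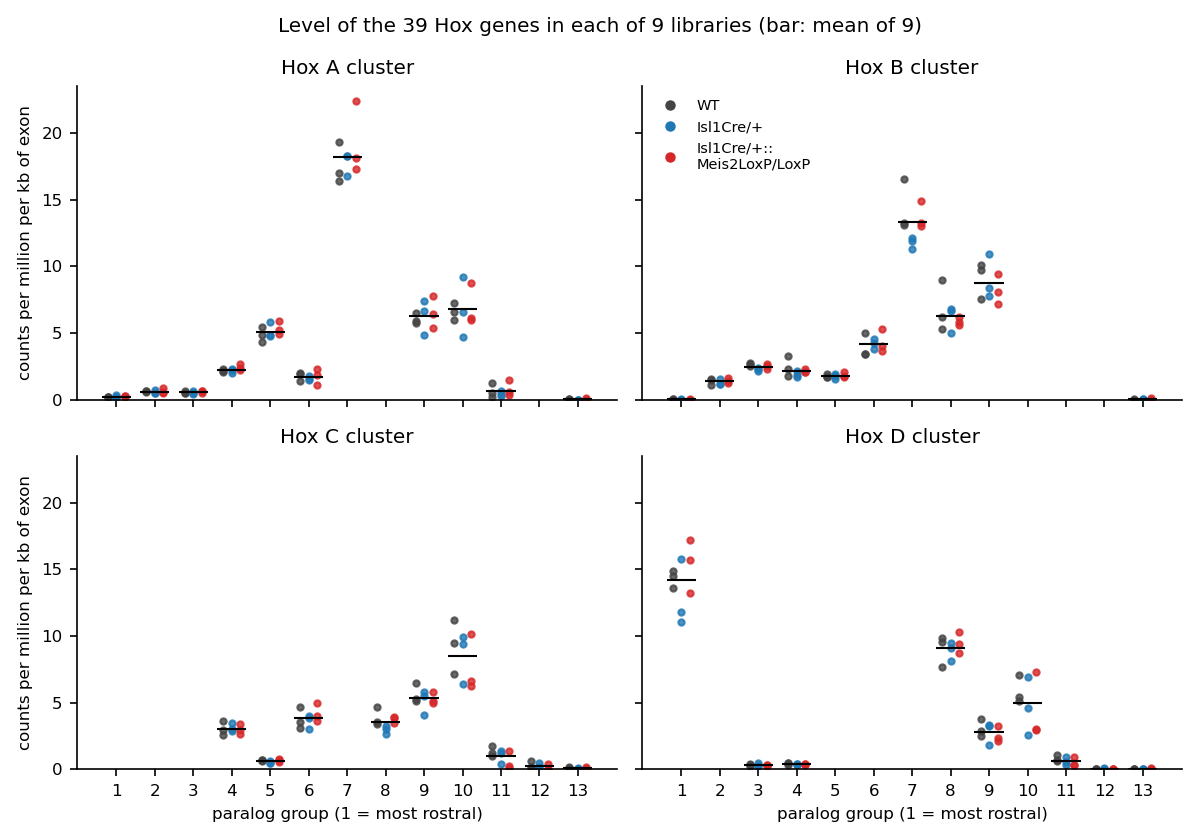
Level of each of the 39 Hox genes (vertical axis, cpm per kb of exon) by paralog group (horizontal axis) in the 4 clusters, with 1 point per library coloured by genotype and a bar at the mean of 9. Hoxa7, Hoxd1 and Hoxb7 stand highest with means of 18.2, 14.2 and 13.3, groups 12 and 13 lie near 0, and the points of Hoxd10 and Hoxc10 are widely spread within each genotype.

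Among the leading genes, Hoxa7 had 1479, 1383 and 1355 counts in WT DRGs, 1542, 1352 and 1495 in Isl1Cre/+ and 1716, 1374 and 1215 in mutant DRGs. Hoxd1 had 716, 783 and 729 counts in WT DRGs, 647, 822 and 582 in Isl1Cre/+ and 854, 648 and 711 in mutant DRGs. The genotypes overlapped for both genes. The coefficient of variation within genotypes was 10.4% for Hoxa7 and 13.5% for Hoxd1, where counting error alone gives 2.64 and 3.72%, and the highest and lowest library of Hoxd1 differed 1.56-fold in cpm. Hoxb3, a rostral member, had 286, 332 and 325 counts in WT DRGs, 286, 255 and 284 in Isl1Cre/+ and 282, 300 and 238 in mutant DRGs. Its coefficient of variation within genotypes was 5.83%, where counting error alone gives 5.90%, and its highest and lowest library differed 1.29-fold in cpm. Antisense exons (Hoxb3os) cover 52.9% of the exonic bases of Hoxb3, and the strand setting of the counting is not stated, so reads of the antisense gene may be included.

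Against WT and against both controls together, 0 Hox genes met the study's criterion in mutant DRGs, whereas 1 (Hoxc8, below) did against Isl1Cre/+. The study's criterion was a fold change of at least 1.2 with an unadjusted p under 0.05. Between mutant and WT, 0 of 24 tested Hox genes met it, against 0.318% of all 13200 tested genes, and 0 had an unadjusted p under 0.05, against 0.371% of all genes. The fitted log2 fold changes were above 0 for 12 genes and below 0 for 12, with a median of 0.016, where the median of all genes was -0.009. Standard errors ran from 0.114 to 0.467, and the interval of the most abundant gene, Hoxa7, was -0.15 to 0.42 around 0.14. Against both controls together (6 libraries), 0 Hox genes met the criterion either, where 0.674% of all genes did, and the smallest unadjusted p of a Hox gene was 0.180. DESeq2 and limma voom also gave 0 Hox genes in both of these comparisons. All adjusted p-values of Hox genes in the 4 comparisons were 1 (edgeR quasi-likelihood test, adjustment over all genes tested).

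Hoxc8 and Hoxb7 were the genes that met the criterion in the comparisons with Isl1Cre/+ DRGs. Hoxc8, which in motor neurons marks the lower cervical levels that supply the forelimb, had 352, 271 and 291 counts in WT DRGs, 252, 257 and 211 in Isl1Cre/+ and 293, 260 and 262 in mutant DRGs. The 3 Isl1Cre/+ libraries were the lowest in cpm (8.40 ± 0.884, SD, n = 3), WT had 11 ± 1.98 and mutant 10.5 ± 0.593. Hoxc8 was higher by 0.33 in mutant than in Isl1Cre/+ (log2 fold change, SE 0.111, 95% interval 0.07 to 0.59, unadjusted p = 0.0197) and lower in Isl1Cre/+ than in WT (log2 fold change -0.37, SE 0.147, 95% interval -0.72 to -0.03, unadjusted p = 0.0377). Between mutant and WT it differed by -0.06 (SE 0.152).

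Hoxb7, from the group with the highest level per kb of exon, had 679, 571 and 591 counts in WT DRGs, 541, 490 and 530 in Isl1Cre/+ and 613, 540 and 489 in mutant DRGs. Again the Isl1Cre/+ libraries were lowest in cpm, at 18.2 ± 0.618 (SD, n = 3) against 22.1 ± 3.0 in WT and 21.2 ± 1.60 in mutant. The log2 fold change of Isl1Cre/+ against WT was -0.27 (SE 0.103, unadjusted p = 0.0356), and that of mutant against Isl1Cre/+ was 0.22 (SE 0.0824, unadjusted p = 0.0304), where the fold of 1.16 stayed under 1.2. Both comparisons contain the same 3 Isl1Cre/+ libraries, so the opposite signs are not independent of each other.

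In mutant against Isl1Cre/+, 1 of 24 Hox genes (4.17%) met the criterion where 1.67% of all genes did, and in Isl1Cre/+ against WT, 2 of 24 (8.33%) where 1.40% did, shares that rest on 1 and 2 genes. Groups did not overlap for 2 Hox genes in mutant against Isl1Cre/+ (8.33%, all genes 7.65%), for 3 in Isl1Cre/+ against WT (12.5%, all genes 6.08%; Hoxb3 beside Hoxb7 and Hoxc8), and for 0 in mutant against WT (all genes 2.76%) or against both controls (all genes 0.848%). The calls depended on single libraries, while the signs stayed. In mutant against Isl1Cre/+, Hoxc8 no longer met the criterion without Isl1Cre/+ 3 (log2 fold change 0.25, unadjusted p = 0.0616), mutant 1 (0.29, 0.0523) or mutant 3 (0.31, 0.0540). In Isl1Cre/+ against WT it failed without WT 1 (-0.24, 0.0742), Isl1Cre/+ 1 (-0.38, 0.0760) or Isl1Cre/+ 3 (-0.30, 0.122), and Hoxb7, at -0.17 to -0.29, failed without WT 1 (0.0506) or any of Isl1Cre/+ 1 (0.0763), 2 (0.104) and 3 (0.0583). Other genes entered in the same comparison, Hoxb3 and Hoxb6 without WT 1, Hoxb4 without WT 2 and Hoxd1 without Isl1Cre/+ 2. Of all 13200 genes, 340, 276 and 167 met the criterion in these fits, against 185 with all libraries. The Hoxb7 call was also lost with library size only (log2 fold change -0.23), with limma voom (-0.26) and without the filter on low counts (-0.25), where its fold was under 1.2. Muscle and red blood cell markers moved in the same directions: 6 of 6 tested skeletal muscle genes and 5 of 5 erythroid genes met the criterion as lower in Isl1Cre/+ than in WT and as higher in mutant than in Isl1Cre/+. The summed muscle markers ran from 110 to 846 cpm in WT, 58.8 to 147 in Isl1Cre/+ and 119 to 1978 in mutant DRGs, and the erythroid markers from 895 to 2131, 342 to 980 and 1208 to 3960. Of 3 tested sympathetic genes, Dbh met it in both comparisons without overlap (log2 fold changes -4.21 and 2.95), and of the cartilage and bone genes Ibsp was lower in Isl1Cre/+ than in WT (-1.92) and Mmp13 and Acan were higher in mutant than in Isl1Cre/+ (1.63 and 1.12). The endothelial genes Kdr and Pecam1 met the criterion the other way, as higher in Isl1Cre/+ than in WT (log2 fold changes 0.52 and 0.35), and Kdr as lower in mutant than in Isl1Cre/+ (-0.37). The part of these markers in the values of Hoxc8 and Hoxb7 was not tested.

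**Figure D2:**
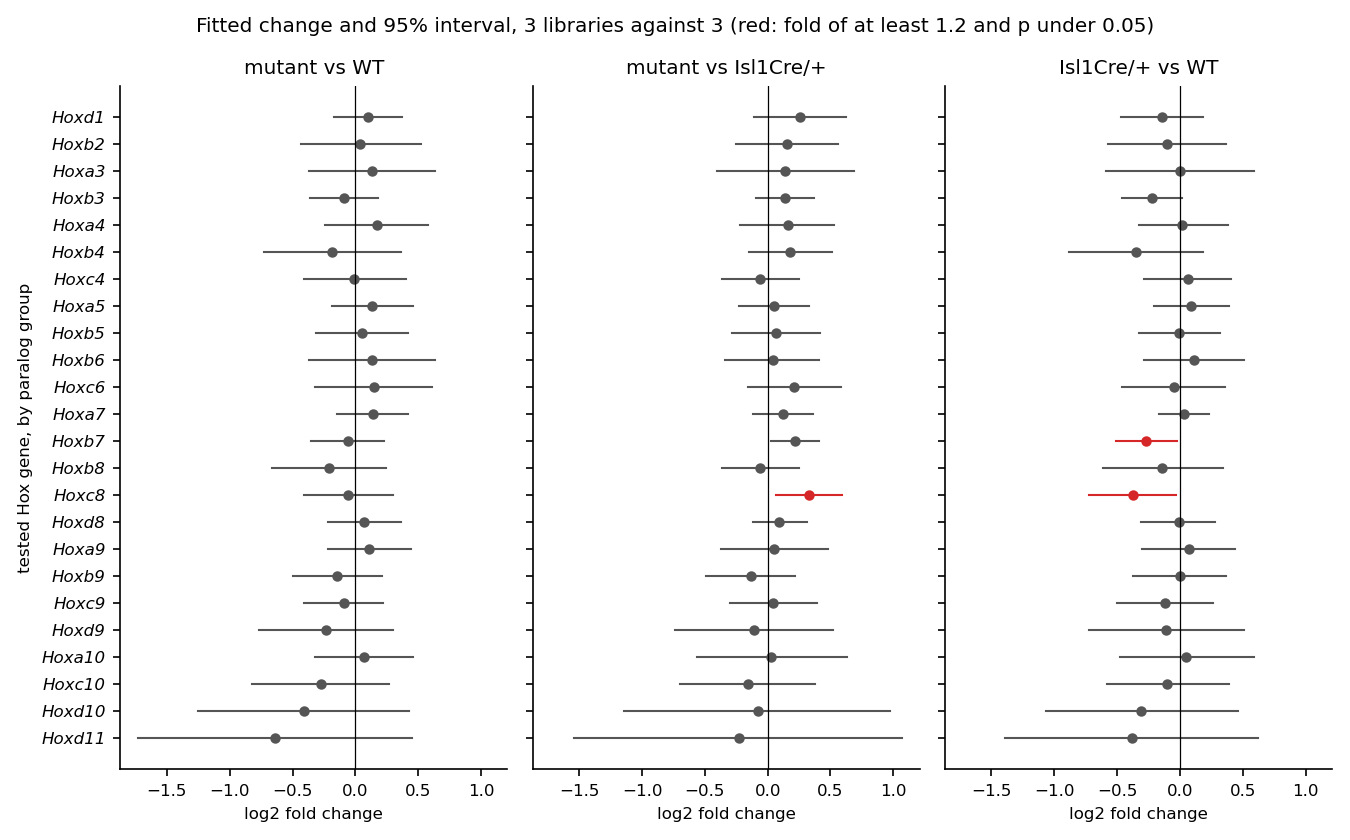
Fitted log2 fold change (points) with its 95% interval (lines) for the 24 tested Hox genes, ordered from paralog group 1 at the top to 11 at the bottom, in the 3 comparisons of 3 libraries against 3. Hoxc8 in the middle panel and Hoxb7 and Hoxc8 in the right panel are red since they met the criterion, and the intervals widen at the bottom, where that of Hoxd11 in mutant against WT runs from -1.73 to 0.45.

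The caudal genes varied widely between libraries of the same genotype. Among the 8 tested genes of groups 9 to 11, the coefficient of variation within genotypes was 13.9 to 49.0% (median 24.0%), and 3 of them differed over 2-fold between their highest and lowest library. Among the 16 tested genes of groups 1 to 8 it was 5.83 to 21.7% (median 13.2%), and 0 differed over 2-fold. Hoxd11 and Hoxd10 were at the top with 49.0 and 40.0%, where counting error gives 11.9 and 6.35%, and 2.33 and 3.38% of all tested genes had a larger coefficient. Relative to counting error, 30.8 and 15.1% of all tested genes varied more than Hoxd11 and Hoxd10. The spread was smallest within WT, where the SD of Hoxd10 was 1.85 cpm, against 3.91 in Isl1Cre/+ and 4.54 in mutant DRGs. For Hoxd11 the SDs were 1.04, 1.35 and 1.39 cpm.

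Hoxd10, which with Hoxc10 specifies lumbar motor neurons that supply the hindlimb, had 339, 264 and 283 counts in WT DRGs, 137, 234 and 354 in Isl1Cre/+ and 144, 349 and 131 in mutant DRGs. The libraries Isl1Cre/+ 1, mutant 1 and mutant 3 were low, at 4.66, 5.41 and 5.38 cpm, and the other 6 lay between 8.36 and 13.3. Hoxd11, a gene of lumbosacral levels and of the distal limb, showed the same 3 libraries at the bottom, with 118, 78 and 73 counts in WT DRGs, 34, 66 and 109 in Isl1Cre/+ and 35, 97 and 30 in mutant DRGs.

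The split was sharpest for Hoxc11, the lumbosacral member of the C cluster, which stayed under the minimum of the test. It had 91, 58 and 71 counts in WT DRGs, 21, 69 and 77 in Isl1Cre/+ and 14, 74 and 5 in mutant DRGs, with exact Poisson 95% intervals of 13 to 32.1, 7.65 to 23.5 and 1.62 to 11.7 for the 3 low libraries and 58.1 to 92.9 for mutant 2. These intervals cover counting error only. Hotair, a long non-coding RNA transcribed from the opposite strand between Hoxc11 and Hoxc12 (chr15:102944062-102947730), was low in the same libraries, with 32, 24 and 26 counts in WT DRGs, 6, 15 and 26 in Isl1Cre/+ and 1, 20 and 1 in mutant DRGs. Hoxc11 and Hotair were singled out after their values were seen. Low levels were thus present in 1 of 3 Isl1Cre/+ and 2 of 3 mutant libraries and in 0 of 3 WT libraries, in genes of the C and D clusters on different chromosomes. In bulk RNA, fewer cells that contain a transcript and less of it per cell cannot be told apart.

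**Figure D3:**
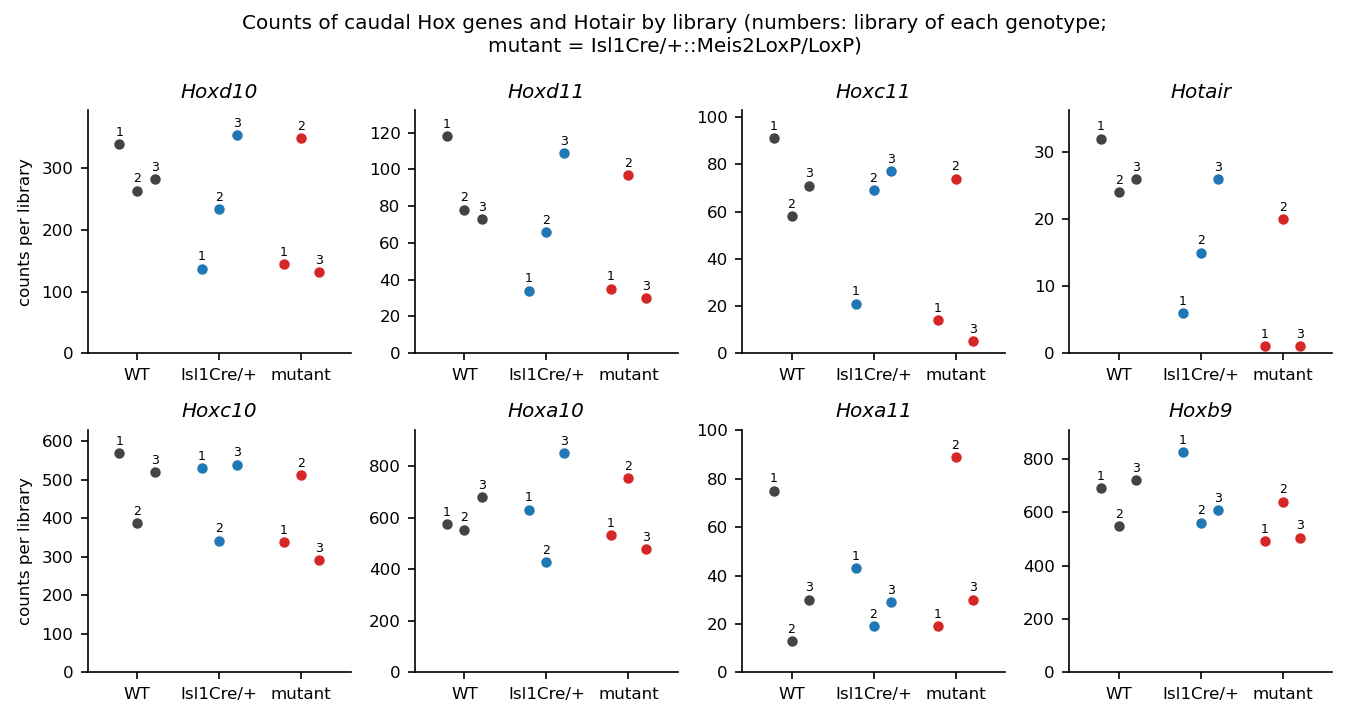
Counts per library (vertical axes, each from 0) of 7 Hox genes of groups 9 to 11 and of Hotair by genotype, with the library number beside each point. Isl1Cre/+ 1, mutant 1 and mutant 3 form the lower set for Hoxd10, Hoxd11, Hoxc11 and Hotair, whereas for Hoxc10 and Hoxb9 Isl1Cre/+ 1 is among the high libraries (529 and 825 counts).

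Not all caudal genes followed this split. Hoxc10 had 569, 387 and 520 counts in WT DRGs, 529, 342 and 539 in Isl1Cre/+ and 338, 511 and 291 in mutant DRGs. Mutant 1 and mutant 3 were low again at 12.7 and 11.9 cpm, but so was Isl1Cre/+ 2 with 12.2, while Isl1Cre/+ 1 had 18. Hoxa10 had 575, 554 and 681 counts in WT DRGs, 631, 427 and 851 in Isl1Cre/+ and 532, 755 and 477 in mutant DRGs, with Isl1Cre/+ 3 and mutant 2 high and Isl1Cre/+ 2 low.

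Group 9 was lowest in Isl1Cre/+ 2 for 3 of its 4 genes. Hoxa9 had 874, 910 and 1048 counts in WT DRGs, 1083, 761 and 1174 in Isl1Cre/+ and 959, 1145 and 727 in mutant DRGs. Hoxb9 had 690, 547 and 720 counts in WT DRGs, 825, 561 and 608 in Isl1Cre/+ and 492, 639 and 504 in mutant DRGs, and mutant 1 was its lowest library in cpm. The genotypes overlapped for both. Hoxc9, a gene of thoracic motor neurons, had 419, 353 and 367 counts in WT DRGs, 392, 275 and 401 in Isl1Cre/+ and 331, 368 and 292 in mutant DRGs. Hoxd9 had 213, 148 and 178 counts in WT DRGs, 207, 107 and 197 in Isl1Cre/+ and 133, 183 and 111 in mutant DRGs, a 2.10-fold range in cpm from Isl1Cre/+ 2 to WT 1. These genotypes overlapped as well. The low values of Isl1Cre/+ 2 recurred across the clusters, since it was the lowest library for 11 of the 24 tested genes, among them Hoxa9, Hoxb8, Hoxc9 and Hoxd9. WT 1 and mutant 2, in contrast, were each the highest library for 9 genes. Hoxa11, a partner of Hoxd11 in limb and kidney, ranged from 13 counts in WT 2 to 89 in mutant 2, with 75 in WT 1, and antisense exons (Hoxa11os) cover 35% of its exonic bases.

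The most caudal groups were at or near 0. Hoxa13, Hoxb13, Hoxc13 and Hoxd13, genes of the tail, hindgut and digits, together gave 63 counts in the 9 libraries, and Hoxc12 and Hoxd12 gave 62. Hoxc12 had 17, 4 and 2 counts in WT DRGs, 4, 13 and 2 in Isl1Cre/+ and 0, 10 and 0 in mutant DRGs. Hoxc13 had 12, 2 and 7 counts in WT DRGs, 7, 3 and 0 in Isl1Cre/+ and 0, 8 and 1 in mutant DRGs. A count of 0 allows a true mean of up to 3.69 (exact Poisson 95% interval), so differences among these libraries below a few counts were not detectable at this depth. In all, 7 of the 39 genes were at 0 in at least 1 library.

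**Figure D4:**
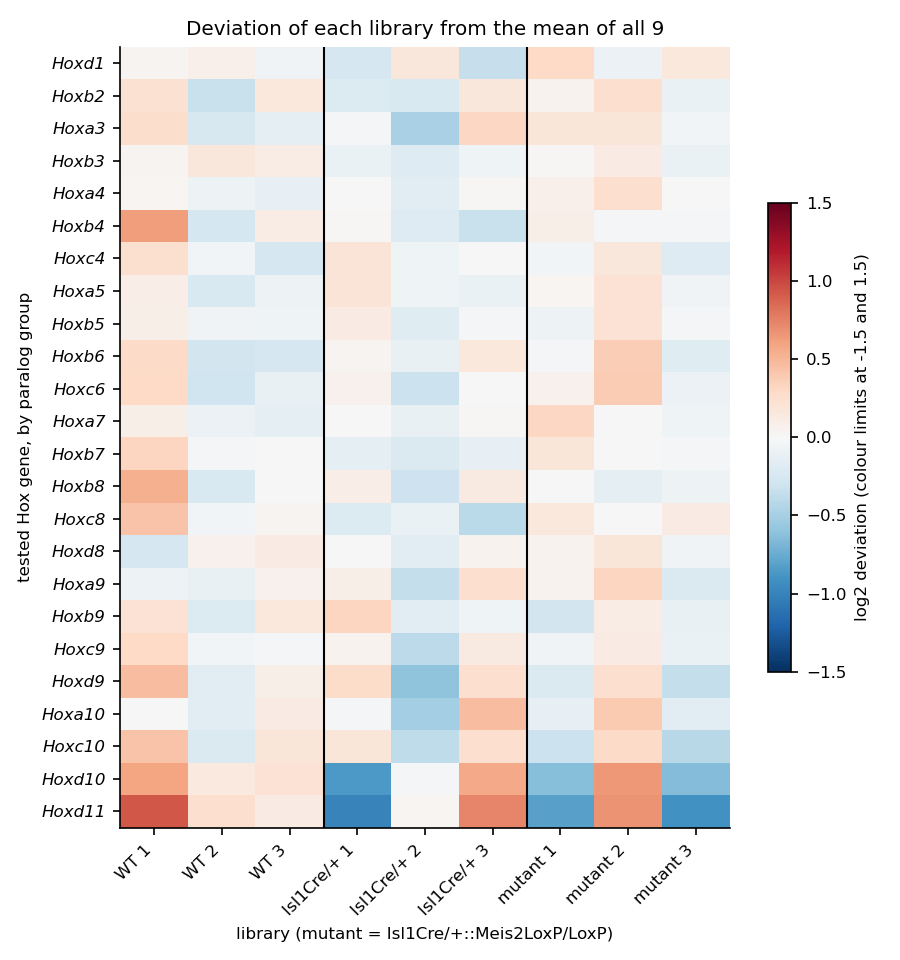
Log2 deviation of each library (columns, by genotype) from the mean of all 9 for the 24 tested Hox genes (rows, from group 1 at the top to group 11 at the bottom), red above and blue below the mean. The bottom rows, Hoxd10 and Hoxd11, are blue in Isl1Cre/+ 1, mutant 1 and mutant 3, and Isl1Cre/+ 2 is pale blue in most rows, the lowest of 9 for 11 genes.

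Leaving out mutant 2 altered the comparison with WT. Without this library, the remaining mutant libraries are both among the low ones, and 3 Hox genes met the criterion between mutant and WT, where 74 of all 13200 genes did: Hoxd11 (log2 fold change -1.32), Hoxd10 (-0.96) and Hoxc10 (-0.50). Without mutant 2 and WT 1, which both stood apart, Hoxd10 and Hoxd11 met it with -0.82 and -1.05, where 182 of all genes did. With all libraries the values were -0.64 for Hoxd11 (SE 0.467, 95% interval -1.73 to 0.45), -0.41 for Hoxd10 (SE 0.359, 95% interval -1.25 to 0.43) and -0.27 for Hoxc10 (SE 0.233, 95% interval -0.82 to 0.27). Hoxd11 reached the 100 counts through WT 1 and Isl1Cre/+ 3, while all mutant libraries lay below, so its lower value in mutant DRGs is tied to its inclusion; with 100 counts required in every library, 21 Hox genes were tested, without Hoxd11. In Isl1Cre/+ against WT, Hoxd10 met the criterion without Isl1Cre/+ 3 (log2 fold change -0.70, edgeR quasi-likelihood test, unadjusted p = 0.0404), where 102 of all genes did. Both Isl1Cre/+ 3 and mutant 2 had high caudal genes, so leaving out either lowers the caudal values of its group by itself. Against both controls, leaving out mutant 2 gave 4 Hox genes (Hoxc10, Hoxd1, Hoxd10 and Hoxd11) among 60 of all genes. In mutant against Isl1Cre/+, Hoxd10 and Hoxd11 differed by -0.08 (SE 0.450) and -0.23 (SE 0.558), and their signs turned with Isl1Cre/+ 3, mutant 1 or mutant 3 left out. By class, log2 fold changes of mutant against WT ran from -0.19 to 0.17 over 7 tested genes of groups 1 to 4, from -0.23 to 0.15 over 13 of groups 5 to 9 and from -0.64 (Hoxd11) to 0.07 (Hoxa10) over the 4 tested of 12 genes of groups 10 to 13.

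To give the axial composition of a library as a single value, an axial index was computed, the mean paralog number weighted by the level per kb over the 24 tested Hox genes. WT libraries had 6.96, 6.77 and 6.96, Isl1Cre/+ libraries 6.95, 6.60 and 7.16, and mutant libraries 6.59, 7.02 and 6.63. The means were 6.90 ± 0.109, 6.90 ± 0.284 and 6.74 ± 0.240 (SD, n = 3), and the genotypes overlapped. The difference of -0.15 between mutant and WT was smaller than the SD of the mutant libraries, and it was -0.29 without mutant 2 and -0.07 without mutant 1. Groups 10 to 13, of which tested genes lie in 10 and 11, made up 16.8, 15.0 and 16.8% of the summed level in WT DRGs, 14.1, 13.7 and 19.4% in Isl1Cre/+ and 11.6, 18.2 and 12.4% in mutant DRGs. The highest and the lowest share were those of Isl1Cre/+ 3 and mutant 1, and the difference between the means of mutant and WT was -2.10 percentage points, where the SD was 1.05 within WT, 3.21 within Isl1Cre/+ and 3.62 within mutant. This difference was -4.18 without mutant 2 and -0.87 without mutant 1. It came from Hoxc10, Hoxd10 and Hoxd11, of whose exonic bases 5.73 to 10.8% overlap another gene on the same strand. Hoxa10, without such overlap, was not lower in mutant than in WT (log2 fold change 0.07). Between mutant and Isl1Cre/+ the share differed by -1.66 points, or by 0.19 without Isl1Cre/+ 3 and -3.74 without mutant 2, and the index by -0.16, or by -0.03 and -0.29. The index of the D cluster alone varied most, from 4.55 in mutant 1 and 4.62 in mutant 3 to 5.94 in mutant 2 and 6.18 in Isl1Cre/+ 3. Hoxd1, with paralog number 1 and a mean of 14.2 cpm per kb, enters both indices. They therefore also move with the level of Hoxd1 and not only with axial composition. Hoxd1 was highest in mutant 1 (32.1 cpm) and lowest in Isl1Cre/+ 3 (20.5 cpm). No test was made on these scores.

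**Figure D5:**
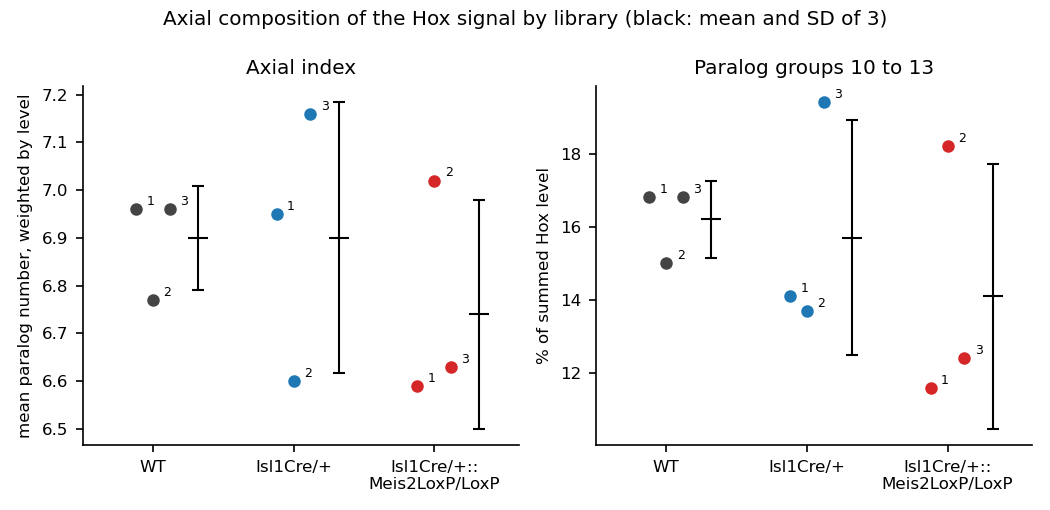
Axial index (left, mean paralog number weighted by level) and share of groups 10 to 13 in the summed Hox level (right, in %) for each library, numbered within its genotype, with the mean and SD of 3 in black. The vertical axes do not start at 0. Mutant 1 and mutant 3 lie at 6.59 and 6.63 and mutant 2 at 7.02, and the range of Isl1Cre/+, 6.60 to 7.16, covers that of WT.

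Markers of other cell types also differed between the libraries. Skeletal muscle markers were highest in mutant 2 (1978 cpm), with high caudal genes, and lowest in Isl1Cre/+ 3 (58.8 cpm), where caudal genes were high as well, while mutant 1 and mutant 3, both low in caudal genes, had 119 and 522 cpm. Sensory neuron markers in the libraries low in Hoxd10 (5530, 6174 and 5452 cpm) were within the range of the others (4877 to 6783). Markers of glia of the central nervous system were highest in mutant 2 (70.1 cpm) and WT 1 (64.7), against 34.8 to 61.9 in the other libraries. Fibroblast and meningeal markers were highest in mutant 2 (4213 cpm) and lowest in mutant 1 (2272). Their part in the caudal values was not tested. The axial index was also entered into the fits of all genes. With it as a covariate, the number of genes that met the criterion rose from 42 to 555 in mutant against WT (27 in both), moved from 221 to 274 in mutant against Isl1Cre/+ (180 in both) and from 185 to 139 in Isl1Cre/+ against WT (134 in both). Meis2 kept its log2 fold change of -1.33 against WT, with an adjusted p of 0.0655 (edgeR quasi-likelihood test) in place of 0.00779. Over all 9 libraries with genotype in the fit, 0 of 13176 other genes followed the index at an adjusted p under 0.05 (edgeR quasi-likelihood test, smallest 0.865), and 430 (3.26%) did so at an unadjusted p under 0.05, of which 272 rose and 158 fell with a higher index. This last fit was chosen after the data were seen.

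Regulators and partners of Hox genes were read from lists of genes. Of 11 TALE genes, Meis2 met the criterion in mutant against either control and 0 of the other 10 did in any of the 3 pairwise comparisons. Meis1, the closest relative of Meis2, had 489, 598 and 617 counts in WT DRGs, 554, 564 and 540 in Isl1Cre/+ and 600, 469 and 494 in mutant DRGs. The criterion was met by 0 of 13 tested genes of retinoic acid synthesis, breakdown and reception, a signal that sets Hox domains in the embryo, by 0 of 19 Polycomb genes, which keep Hox genes silent, and by 0 of 10 genes of Trithorax and H3K27 demethylases, which oppose them, in the 3 pairwise comparisons. Median log2 fold changes of mutant against WT were 0.02, -0.02 and -0.05 for these lists, beside -0.009 for all genes. Since 0.318, 1.67 and 1.40% of all genes met the criterion in these comparisons, counts of 0 in lists of this size are near the background. Within the retinoic acid list, whose sum ran from 204 to 431 cpm, Cyp26b1, an enzyme that breaks down retinoic acid, had log2 fold changes of 0.97 (SE 0.662) in mutant against Isl1Cre/+ and -0.92 (SE 0.474) in Isl1Cre/+ against WT without meeting the criterion. Of 43 non-coding genes within the clusters, 14 were at 0 in all libraries and 4 were tested (Gm11539, Gm53, Hoxd3os1 and Haglr), of which 0 met the criterion. Of 12 other axial genes and genes at the cluster ends, 3 were tested and 0 met it, and Evx1 and Evx2, which flank the A and D clusters at their caudal ends, had 0 to 4 counts.

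RefSeq promoters of 300 bases (GRCm38.p6) were given for 22 Hox genes (24 promoters), and letters of known binding motifs were searched on both strands. The Meis core TGACAG was found in 2 of them (Hoxa2 and Hoxa3), or 8.3%, where 19.2% of all 32851 promoters held it. The composite motif of Pbx and Hox proteins, TGATNNAT, was found in 4 (Hoxa2, Hoxb1, Hoxb8 and Hoxd11), or 16.7%, against 8.8% of all promoters. The letters differ from the fourth base on, so that no match of one is a match of the other at the same start. These matches describe letters in short windows and are not binding sites.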

How the data were processed

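RNA of DRGs from 9 mouse embryo samples at E18.5 was analysed, 3 libraries per genotype as given by the labels. For the deposited counts, the authors enriched poly(A) RNA, added unique molecular identifiers, aligned single-end reads of 84 bases to mm10 with STAR 2.7.10, collapsed duplicates with UMI-tools and counted reads per gene with HTSeq-count 0.6. Annotation release and strand option are not given in the sources used here. The deposited log2 fold changes and mean log2 expression, the deposited p-values and the deposited scores (moderated statistic and log odds) are results of the authors' own limma fits, in 18 columns, and were not used.

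A gene was tested if any 1 library had 100 counts or more (13200 genes). Each pair of genotypes was fitted separately in edgeR 4.0.16 (R 4.3.3) after TMM scaling, and the quasi-likelihood test was two-sided, its p-values adjusted over the whole table by Benjamini-Hochberg. The mutant was also compared with all 6 controls. Alternatives used DESeq2 1.42.0 and limma voom 3.58.1, other size factors and filters, a replicate block and libraries left out. In data simulated for mutant against WT over 13200 genes, 198 of 200 genes changed 2-fold met the criterion and 159 passed adjustment. In the sequenced libraries, 0.371% of all 13200 genes had an unadjusted p under 0.05 in this comparison (edgeR quasi-likelihood test). Recovery of a 2-fold change in these libraries was not tested. Levels between genes are cpm with TMM divided by exon length from GENCODE M21, to which 55154 of 55247 identifiers matched. Log2 deviations of the Hox genes used no pseudocount, and the checks of rank correlation and pairing used a pseudocount of 0.5. Genes named in full are those that met the criterion, the highest and the most caudal tested gene of each cluster, those of groups 9 to 13 with the count minimum, and the most and least variable. The Hox genes and the other lists were chosen with earlier results of these data known. Protein sequences were not used here, so homeoboxes are shown as DNA. Some items are not reported here. No pair of libraries of a genotype agreed within counting error, the chi-square per degree of freedom being 12.6 to 129. Replicate numbers did not pair libraries: same-numbered libraries of different genotypes had correlations of their deviations between -0.569 and 0.385. Precision is set by the depth of 23854607 to 29103444 counts and by the spread between libraries.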

Additional observations from a re-analysis of the deposited data

Results flagged for a closer look

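Hoxa13 and Hoxb13, genes of the most caudal group that were too low to be tested, had counts in mutant 2 above those of any control library. Hoxa13 had 7 counts in mutant 2 (exact Poisson 95% interval 2.81 to 14.4), 0 in mutant 1 and mutant 3 and at most 1 in a control library. Hoxb13 had 5 counts in mutant 2 (1.62 to 11.7), 0 in the other mutant libraries and at most 1 in a control library. Both stand in the library that was also highest for Hoxd10 (349 counts) in cpm and for Hoxa11 (89 counts). Skeletal muscle markers (1978 cpm) and erythroid markers (3960 cpm) were highest in the same library, and their part in these counts was not tested.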

How the results depend on the processing

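Of the counts and scores recomputed under an alternative, 121 values stayed within 1.5 times (counts) or 1 SD between libraries (scores) and 24 moved. Within that SD, the share of groups 10 to 13 in mutant minus Isl1Cre/+ (-1.66 points) turned to 0.19 without Isl1Cre/+ 3. The number of Hox genes that met the criterion in mutant against WT (0) was 0 to 3 with 1 library left out (3 beside 74 of all 13200 genes). It was 2 without WT 1 and mutant 2 together (all genes 182). Against both controls (0) it was 1 without the filter (all genes 830 of 33884). It was 0 to 4 with 1 library left out (4 beside 60 of 13200) and 5 without WT 1 and mutant 2 (all genes 130). In mutant against Isl1Cre/+ (1) it was 2 without the filter (all genes 1028 of 32358) and 2 with no fold requirement. It was 0 at a fold of at least 1.5 and 0 to 2 with 1 library left out (2 beside 217 or 228 of 13200). In Isl1Cre/+ against WT (2) it was 1 with library size only (all genes 163), without the filter (845 of 32526) or with limma voom (140), with Hoxb7 lost. It was 0 at a fold of at least 1.5 and 0 to 3 with 1 library left out (3 beside 276 of 13200). Without Isl1Cre/+ 3 it was Hoxd10 alone (all genes 102). The gene added without the filter was Hoxa13. With the replicate block the count was 0 in mutant against Isl1Cre/+ (all genes 177) and 1 in Isl1Cre/+ against WT (Hoxc8, all genes 236). It stayed 0 in mutant against WT (all genes 31), although the numbers do not pair the libraries. All genes that met the criterion in mutant against WT numbered 555 with the axial index as a covariate. From the D cluster alone, the axial index of mutant minus WT was -0.44 and the share of groups 10 to 13 -5.20 percentage points. Among Hox genes without exonic overlap with another gene, Hoxa10 is the only tested one of groups 10 to 13. It was not lower in mutant than in WT (log2 fold change 0.07). Signs turned for log2 fold changes without a call. In mutant against WT with 1 library left out, Hoxc8 ran from -0.15 to 0.10 (0.01 without mutant 2) and Hoxb7 from -0.12 to 0.06, and without WT 1 and mutant 2 they were 0.15 and 0.09. In mutant against Isl1Cre/+, Hoxd10 ran from -0.65 without mutant 2 to 0.30 without Isl1Cre/+ 3 and Hoxd11 from -0.94 to 0.25 likewise. In Isl1Cre/+ against WT, Hoxc10 ran from -0.24 without WT 2 to 0.07 without Isl1Cre/+ 2. The causes were not tested. With 2 libraries in a group, both are assumed to vary like the other group. Depth limits groups 12 and 13.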
